A study of Mus musculus with 8 samples.

Results

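Accessible chromatin was examined at 5 genes whose proteins bring about the decay of cytokine mRNAs: Zfp36, Zfp36l1, Zfp36l2, Zc3h12a and Zc3h12c. ATAC-seq, which maps open chromatin by the places a transposase can reach, had been run on macrophages grown from mouse bone marrow for 7 days in 25% conditioned medium of L929 cells, which secrete the growth factor M-CSF. The 8 libraries formed 4 groups of 2: Nfat5 KO with LPS (0.3 ng/ml for 2 h), Nfat5 KO untreated, wild type (WT) with LPS, and WT untreated. Each LPS library shared a code in its title with an untreated library of the same genotype, and the labels do not say what it marks. NFAT5 is a transcription factor of the response to high salt that also acts in macrophages, and LPS is the endotoxin of Gram-negative bacteria. The sources used here do not say how the Nfat5 allele was deleted, in which cells, or whether the 2 libraries of a group came from separate cultures, so p-values measure the spread between these libraries only. Each library was represented by a list of peak positions with no height or count, so depth is unknown and a peak can be described only by its position and width. Absence from a list means that no peak was called, not that the chromatin was closed. Peaks of the 8 lists were merged where they shared at least 1 base, which gave 87260 regions on GRCm38. The regions of a gene are those for which it was the nearest of 21887 protein-coding gene bodies, within 100 kb. The 5 genes held 66 of the 87260 regions.

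Cytokine mRNAs are kept short-lived by proteins that bind their untranslated tails. Tristetraprolin, encoded by Zfp36, and its paralogs encoded by Zfp36l1 and Zfp36l2 bind AU-rich elements through paired CCCH zinc fingers and recruit the CCR4-NOT complex, which removes the poly(A) tail. Regnase-1, encoded by Zc3h12a, and Regnase-3, encoded by Zc3h12c, are RNases with a single CCCH zinc finger, and Regnase-1 cuts stem-loops in mRNAs such as that of Il6. In macrophages Zfp36 and Zc3h12a are known as genes that LPS induces and whose products then limit the inflammatory response.

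The promoters of Zfp36, Zfp36l1 and Zc3h12a were called in all 8 libraries (as were the windows of 36.0% of 27025 genes), and the 250 bases before their annotated starts are shown because the peaks described next lie over and around them. Sequences are from RefSeq (GRCm38.p6), which gave a start for 4 of the 5 genes. Capitals mark matches, on either strand, to the NF-kB consensus, TGGAAA (the NFAT core), TGANTCA (AP-1), TTCNNNGAA (STAT), the CArG box of SRF, TATAAA and GGGCGG (the GC box).
Zfp36, chr7:28379229-28379478, minus strand: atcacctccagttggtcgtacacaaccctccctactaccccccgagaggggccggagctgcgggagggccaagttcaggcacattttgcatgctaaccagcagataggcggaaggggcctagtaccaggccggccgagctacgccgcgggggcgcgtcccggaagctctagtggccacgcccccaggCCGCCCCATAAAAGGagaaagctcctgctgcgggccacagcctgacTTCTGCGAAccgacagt
Zfp36l1, chr12:80113014-80113263, minus strand: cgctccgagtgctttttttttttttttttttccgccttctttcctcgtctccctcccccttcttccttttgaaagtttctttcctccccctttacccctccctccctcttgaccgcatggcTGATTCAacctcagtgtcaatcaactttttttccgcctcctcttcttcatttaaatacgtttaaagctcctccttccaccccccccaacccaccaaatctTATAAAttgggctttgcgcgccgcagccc
Zc3h12a, chr4:125127882-125128131, minus strand: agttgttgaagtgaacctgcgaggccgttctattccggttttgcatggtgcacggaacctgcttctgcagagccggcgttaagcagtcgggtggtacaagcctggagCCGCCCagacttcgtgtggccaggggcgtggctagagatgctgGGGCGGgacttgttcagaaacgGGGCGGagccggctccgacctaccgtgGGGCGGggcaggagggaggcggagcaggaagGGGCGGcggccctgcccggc
The Zfp36 window held a CArG box whose first base was at -58 from the start, found in 1.47% of all 32851 such windows of 250 bases, and TTCNNNGAA at -17, found in 7.02%. A GGGCGG match at -63 overlapped the CArG box. In Zfp36l1, TGANTCA lay at -129 (6.75% of windows) and TATAAA at -29 (12.4%). The Zc3h12a window held 5 matches to GGGCGG, which 32.7% of windows hold at least once, and none of the other motifs in capitals. For Zc3h12c the table gave a start inside the annotated gene body (chr9:52168406), within a region called in all 8 libraries, and 1 more start further in (chr9:52149363), where no library had a peak. The window of the first had 76.4% G and C, against a median of 52.4% over all windows, and 1 match to the NF-kB consensus at -236 (7.25% of windows). None of the 5 windows of the 4 genes held TGGAAA (18.6% of windows) or the full NFAT5 consensus (4.31%). A match is a description of letters and not of a bound site, and a missing match says nothing about a factor.

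The genes differed in how much called chromatin surrounded them. Zc3h12c had 23 regions and Zfp36l2 22, more than 97.9% and 97.7% of the genes with a region, whereas Zc3h12a had 10, Zfp36l1 8 and Zfp36 3 (the median gene with a region had 3). Of the 66 regions, 30 were called in all 8 libraries (45.5%, against 41.3% of all regions) and 7 in a single library (10.6%, against 20.1%). Each of the 5 genes had a region over an end of its body that all 8 libraries called. At Zfp36l2, 17 of the 22 regions lay more than 25 kb away, all on the side facing away from Thada, the next gene. The region over the end of Zfp36l1 also overlapped the predicted gene Gm52006 and was given to Zfp36l1, with which it shared more bases.

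**Figure D1:**
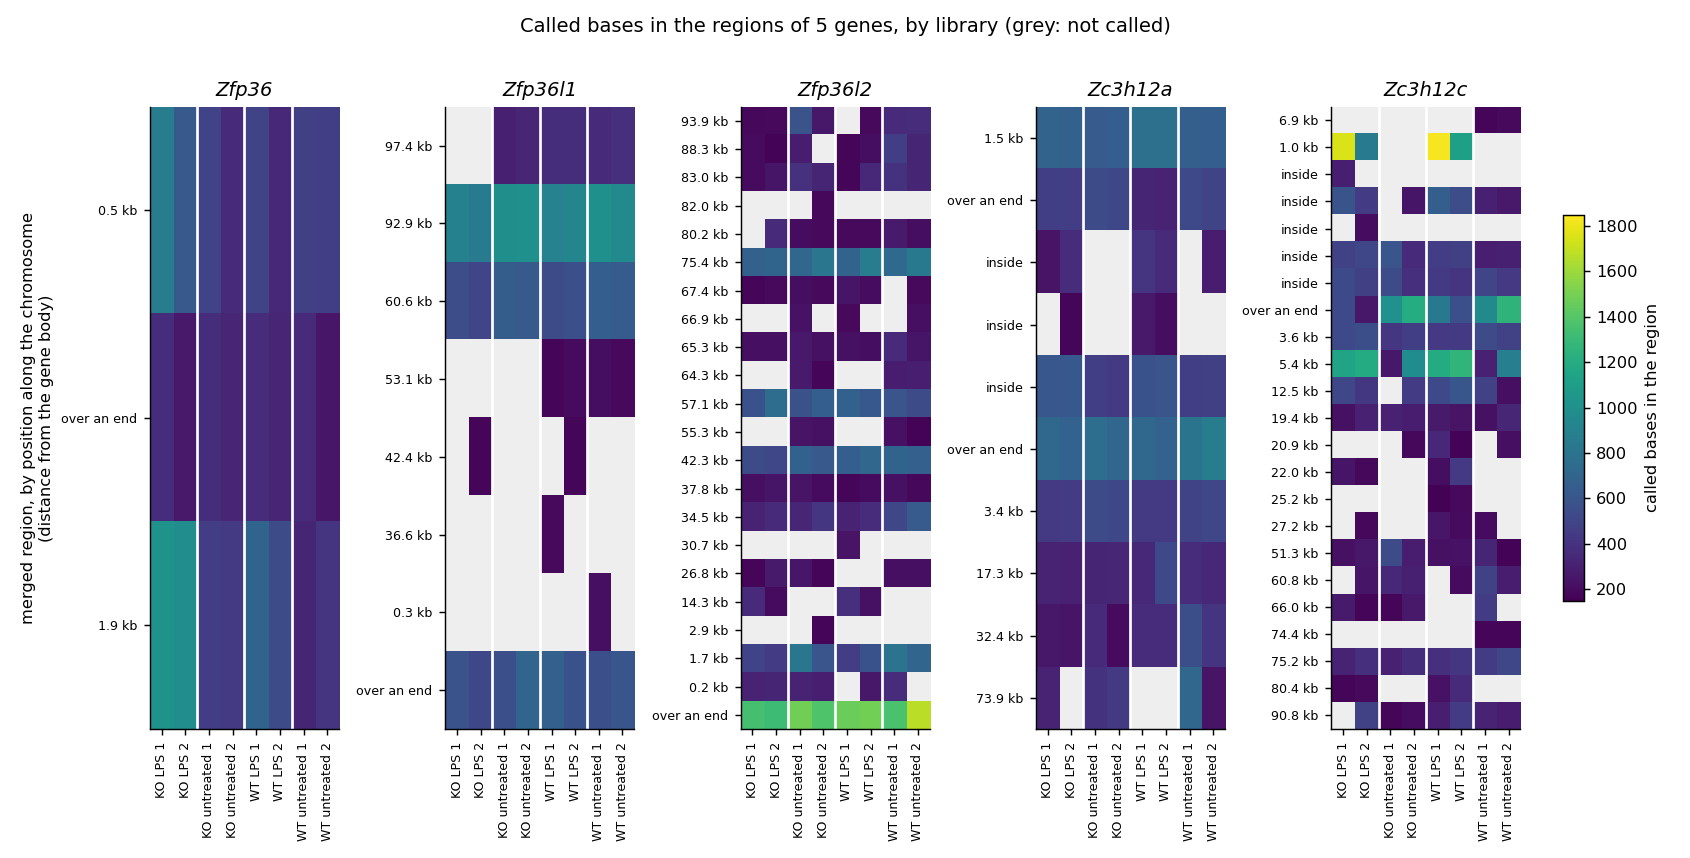
Called bases in each of the 66 regions (rows, in chromosome order and labelled by distance from the gene body) in the 8 libraries (columns), with grey where a library did not call the region. The rows at the gene ends are filled in every library, and 4 rows, 3 at Zc3h12c and 1 at Zfp36l2, are filled in the 4 LPS libraries alone.

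The LPS lists covered less of the genome. Their peaks covered 26.2 to 28.0 Mb in total, against 29.6 to 31.2 Mb in the untreated lists. The KO lists covered less than the WT lists in each treatment. With LPS they covered 27.1 and 26.2 Mb in KO, against 28.0 and 27.7 Mb in WT. Untreated, they covered 29.6 and 30.4 Mb in KO, against 31.2 and 30.9 Mb in WT. Among the regions called in all 8 libraries, the median log2 difference in width between LPS and untreated was -0.11, and changes at the 5 genes are read against it. Nfat5 itself had 7 regions, 4 of them called in all 8 libraries, and 2273 to 3075 called bases in KO against 2140 to 2523 in WT, so these lists do not show the deletion. As a check of the cell type, promoter windows were called in all 8 libraries for 4 of the 5 macrophage markers with a window (Mertk, Cd68, Fcgr1 and Lyz2, not Itgam), and in no library for the 4 T cell, 3 B cell, 2 fibroblast and 3 erythroid markers with one. Of 5 neutrophil markers, S100a8 was called in all 8 libraries, Camp in some but not all, and Elane, Mpo and Ly6g in none. Summed called bases near the T cell markers were 542 to 1179 with LPS and 1196 to 1271 untreated, and near the B cell markers 1410 to 2099 with LPS and 2159 to 3413 untreated. Macrophage markers had 22596 to 26740 with LPS and 24415 to 27385 untreated. Neutrophil markers had 788 to 1910 with LPS and 838 to 1348 untreated. By genotype they had 788 to 1203 in KO and 1211 to 1910 in WT, without overlap, while KO and WT overlapped for the other lists. The part of these differences in the results below was not tested. Fewer open cells and narrower openings per cell cannot be told apart in these bulk lists.

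The first comparison asked where LPS altered called chromatin at the decay factor genes. Zc3h12c, which encodes Regnase-3, had 3 regions that were called in each of the 4 LPS libraries but in none of the untreated, Zfp36l2 had 1, and the other genes had none. These 4 of 66 regions (6.06%) stand beside 1.10% of all 87260 regions with that pattern. In the opposite direction, 2 regions (3.03%), both at Zfp36l2, were called in all 4 untreated libraries and no LPS library, against 0.928% of all regions. These counts of calls are a description, with no test.

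The widest of the gained regions lay just past the far end of Zc3h12c (chr9:52106588-52108618, 0.951 kb outside the gene body). It had 1756 and 859 called bases in the KO LPS libraries and 1830 and 1114 in the WT LPS libraries, and no call in any untreated library. In WT LPS library 1 these bases came as 2 peaks. A second lay 22.0 kb before the gene (chr9:52190745-52191230), with 244 and 189 bases in KO LPS and 216 and 440 in WT LPS. The third lay 80.4 kb before it (chr9:52249082-52249441), with 178 and 191 bases in KO LPS and 235 and 360 in WT LPS. The smallest of these values lay close to the narrowest peaks of the lists, 156 to 174 bases. The next gene, Rdx, was 17.9 kb from the first region and over 100 kb from the others.

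With a call required to cover at least 50% of the region, none of the 3 counted as gained in both genotypes. In their place stood a region inside Zc3h12c (chr9:52132313-52133013). It had 590 and 445 bases in KO LPS, against 0 and 247 in KO untreated, and 659 and 554 in WT LPS, against 301 and 264 in WT untreated, so that all LPS libraries lay above all untreated ones. A region with more called bases in every LPS than in every untreated library lay 5.40 kb before the gene (chr9:52174132-52175807), with 1140 and 1194 bases in KO LPS, against 262 and 975 in KO untreated. In WT it had 1197 and 1261 bases with LPS, against 305 and 878 untreated. Its log2 difference was 1.23 ± 0.499 (SE, limma adjusted p = 0.232 over 36009 regions called in all 8 libraries). With the widest peak in place of all called bases it was 1.72 ± 0.273 (limma adjusted p = 0.0477), where KO untreated library 2 held 2 peaks there and WT untreated library 2 held 3.

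The region over the Zc3h12c start (chr9:52167691-52168988) lay the other way. It had 522 and 260 bases in KO LPS, against 1009 and 1201 in KO untreated, and 834 and 563 in WT LPS, against 959 and 1255 in WT untreated. All LPS libraries lay below all untreated ones, and the lowest was KO LPS library 2. The log2 difference was -1.13 ± 0.261 (SE, limma adjusted p = 0.0896), which did not pass.

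**Figure D2:**
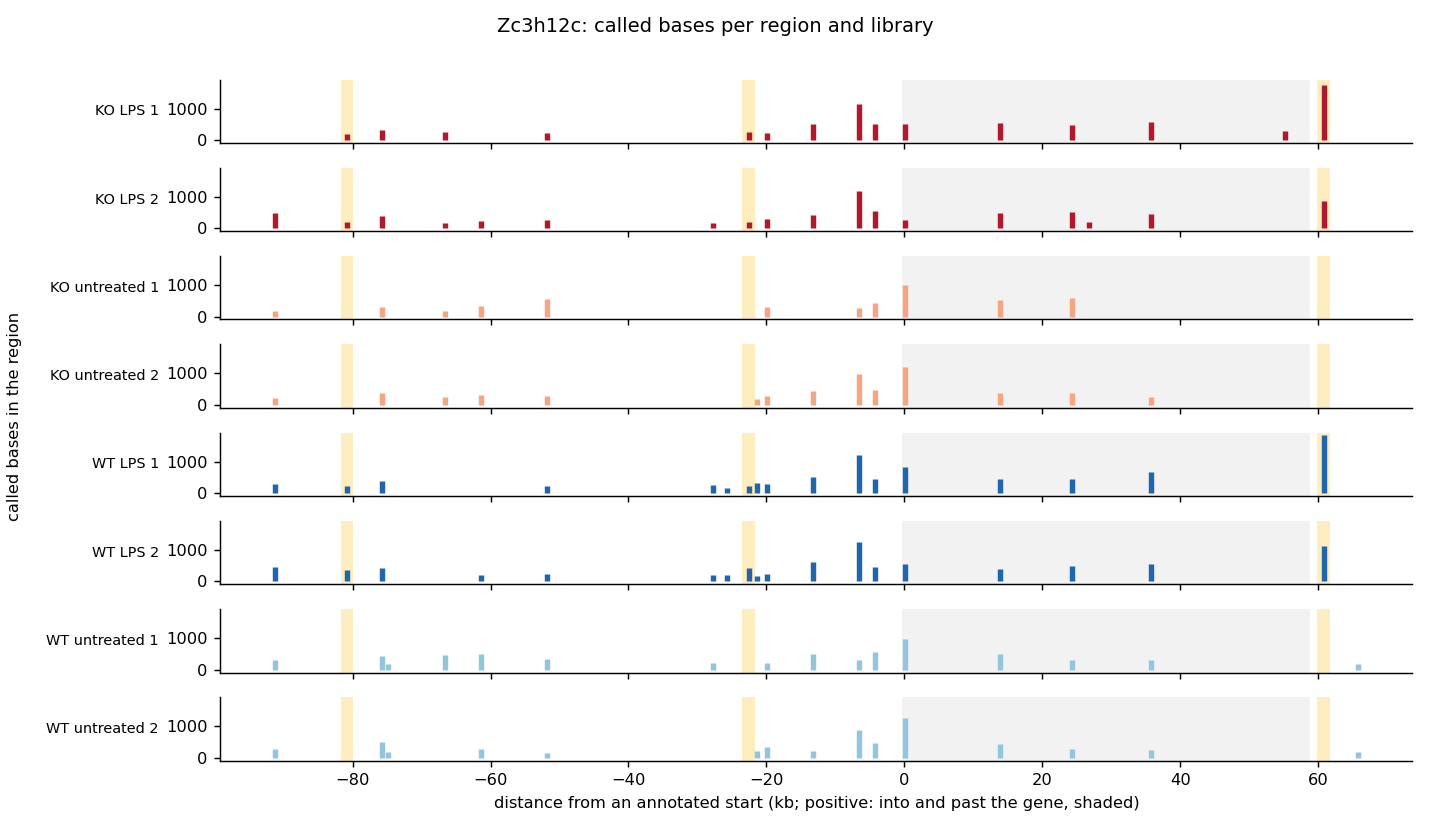
Called bases (vertical axis) in each region of Zc3h12c against its distance in kb from an annotated start, 1 row per library, with the gene body in grey and the 3 regions called in the LPS libraries only in yellow. The bar past the far end of the gene reaches 1830 bases with LPS, while the bar at 0 kb is lower in all 4 LPS libraries (260 to 834 bases) than in the untreated ones (959 to 1255).

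Zfp36l2, the paralog known for its part in lymphocyte and blood stem cell development, had both gained and lost regions. The gained one lay 14.3 kb outside the gene (chr17:84169248-84169627), with 351 and 201 bases in KO LPS and 379 and 226 in WT LPS, and no call untreated. It also counted as gained with at least 50% of the region covered. The lost ones lay 64.3 and 55.3 kb outside. The first of them (chr17:84119273-84119598) had no call in KO LPS, against 271 and 170 bases in KO untreated, and none in WT LPS, against 284 and 296 in WT untreated. The second (chr17:84128332-84128578) had no call in KO LPS, against 239 and 225 bases in KO untreated, and none in WT LPS, against 224 and 164 in WT untreated. The smallest value of each lost region lay at or near the narrowest peak of its list. That peak had 167 bases in KO untreated library 2 and 164 in WT untreated library 2.

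A region 1.71 kb outside Zfp36l2 (chr17:84181323-84182216) had 492 and 449 bases in KO LPS, against 820 and 596 in KO untreated, and 456 and 579 in WT LPS, against 796 and 704 in WT untreated. All LPS libraries lay below all untreated ones (log2 difference -0.56 ± 0.141, SE, limma adjusted p = 0.106). The region over the end of the gene (chr17:84187195-84188951) had 1317 to 1485 bases with LPS and 1363 to 1677 untreated, which overlapped (log2 difference -0.07 ± 0.091, 95% interval -0.29 to 0.15).

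**Figure D3:**
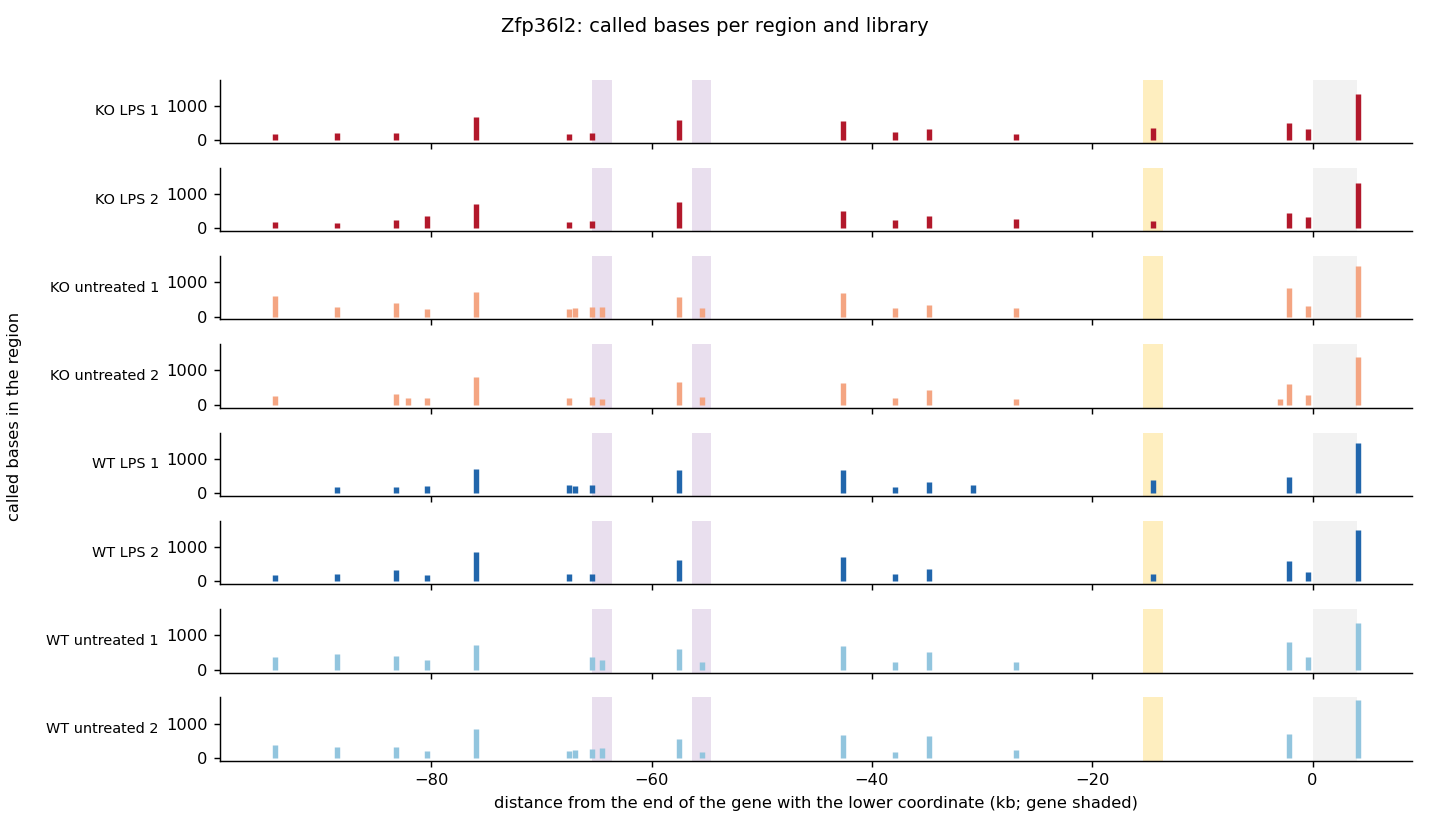
Called bases (vertical axis) in each region of Zfp36l2 against its distance in kb from the gene end with the lower coordinate, 1 row per library. Yellow marks the region called in the 4 LPS libraries only and purple the 2 called in the 4 untreated libraries only; the tall bar over the gene end is present throughout.

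Zfp36, which encodes tristetraprolin, had no region that was gained or lost, since each of its 3 regions was called in all 8 libraries. The region 1.86 kb upstream of its start (chr7:28381089-28382181), 3.07 kb from the next gene, Med29, was wider with LPS. It had 1026 and 983 bases in KO LPS, against 459 and 438 in KO untreated, and 697 and 536 in WT LPS, against 323 and 403 in WT untreated. All LPS libraries lay above all untreated ones, and both KO LPS libraries lay above both WT LPS ones. The log2 difference of 0.96 ± 0.121 (SE, limma adjusted p = 0.0314) passed, where 0.492% of the 36009 regions passed as wider. In both WT LPS libraries the bases came as 2 peaks, and with the widest peak alone the difference was 0.60 ± 0.134 (limma adjusted p = 0.0895). The region over the promoter printed above (chr7:28379154-28379587) had 253 to 373 bases across the 8 libraries, with a log2 difference of 0.04 ± 0.160 (95% interval -0.35 to 0.43). The region past the far end (chr7:28375391-28376251) had 861 and 624 bases in KO LPS, against 492 and 359 in KO untreated, and 498 and 349 in WT LPS, against 471 and 465 in WT untreated, so that the groups overlapped in WT.

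Zc3h12a, which encodes Regnase-1, had 10 regions, of which each library called 8 or 9, and 7 were called in all 8 libraries. The region over its far end (chr4:125118000-125118550) was narrower with LPS, with 463 and 458 bases in KO LPS, against 542 and 516 in KO untreated. In WT it had 329 and 316 bases with LPS, against 522 and 498 untreated. All LPS libraries lay below all untreated ones (log2 difference -0.43 ± 0.068, SE, limma adjusted p = 0.0448, where 1.43% of regions passed as narrower). With widths centred on the median of each library the difference was -0.31 ± 0.071 (limma adjusted p = 0.108), which did not pass. A region inside the gene, 3.04 kb past the start (chr4:125124531-125125150), ran the other way. It had 610 and 619 bases in KO LPS, against 463 and 439 in KO untreated, and 579 and 599 in WT LPS, against 468 and 473 in WT untreated. The groups did not overlap, and the difference of 0.39 ± 0.067 just missed the threshold (limma adjusted p = 0.0527). After centring it was 0.51 ± 0.068 and passed (limma adjusted p = 0.0395). The promoter region (chr4:125127329-125128228) had 685 to 719 bases with LPS and 713 to 873 untreated, and the groups overlapped.

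At Zfp36l1, which encodes a paralog that acts like tristetraprolin, 2 far regions called in all libraries had fewer bases in every LPS than in every untreated library, those 92.9 kb and 60.6 kb from the gene. The second (chr12:80046478-80047145) had 553 and 503 bases in KO LPS, against 654 and 624 in KO untreated, and 540 and 563 in WT LPS, against 656 and 644 in WT untreated (log2 difference -0.26 ± 0.072, limma adjusted p = 0.127). The promoter region had 519 to 673 bases with LPS and 564 to 703 untreated.

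Over the 30 regions of the 5 genes that all libraries called, 1 passed as wider and 1 as narrower with LPS. The median log2 difference was -0.10, against -0.11 over all 36009 regions, single regions ranged from -1.13 to 1.23, and 10 had an unadjusted limma p under 0.05, against 21.4% of all regions. All LPS libraries lay above all untreated ones in 4 of the 30, against 2.60% of all such regions, and below them in 7 of the 30, against 10.8%. With any 1 library left out, neither region passed in limma. In 7 of those 8 fits no region of the whole table passed, and without WT LPS library 2, 12 passed as wider and 53 as narrower. With the code that an untreated and an LPS library share as a replicate block, none passed either (limma adjusted p = 0.118 for Zfp36 and 0.127 for Zc3h12a).

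**Figure D4:**
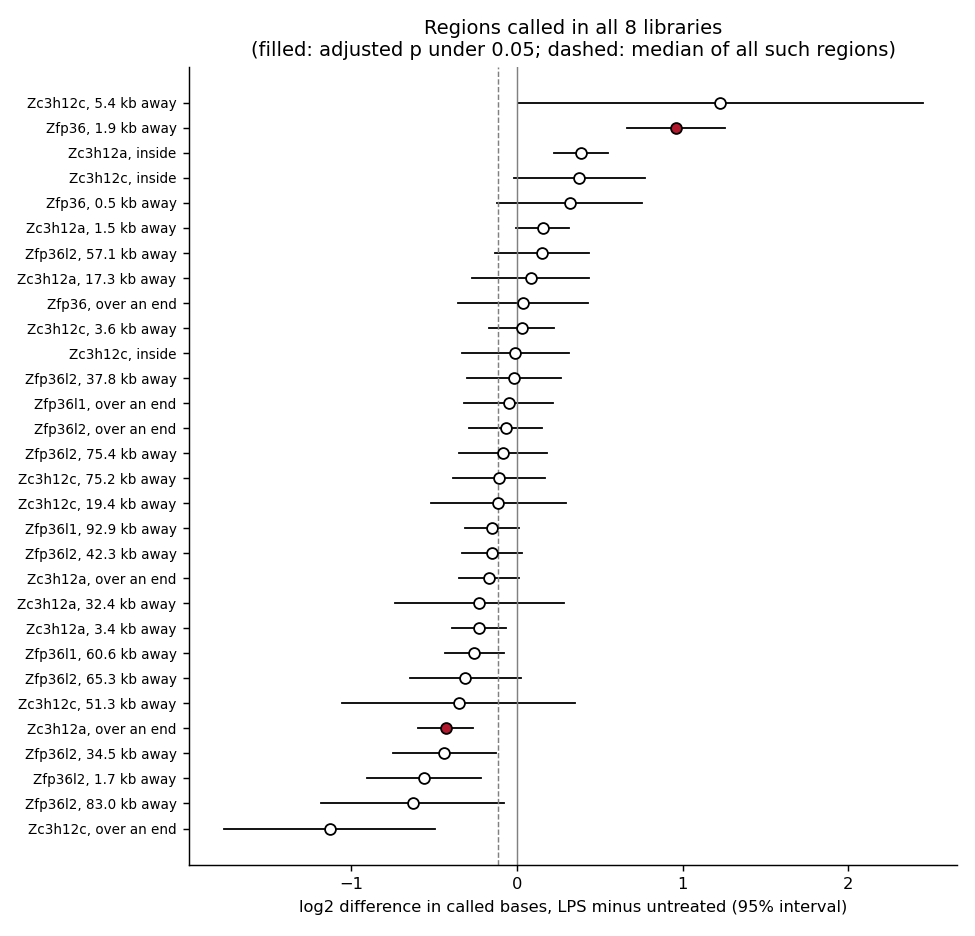
Log2 difference in called bases, LPS minus untreated, with its 95% interval, for the 30 regions called in all 8 libraries; filled points passed the adjusted threshold and the dashed line is the median of all 36009 such regions. The region 1.86 kb from Zfp36 and that over the far end of Zc3h12a are filled, on opposite sides of 0.

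Summed over its regions, Zc3h12c had 7817 and 7341 called bases in KO LPS, against 4686 and 5973 in KO untreated, and 8754 and 8325 in WT LPS, against 6199 and 6018 in WT untreated. All LPS libraries lay above all untreated ones (8059 ± 613 against 5719 ± 696, SD, n = 4 each, two-sided exact permutation p = 0.0286, the smallest that 4 against 4 allows). How many of all genes separate in this way was not counted, for Zc3h12c or for the genes below. The permutation p therefore does not set a gene apart from others, and 26.0% of all genes had an unadjusted limma p under 0.05 for LPS. The log2 difference of Zc3h12c was 0.49 ± 0.099 (SE) and missed the threshold over 15726 genes (limma adjusted p = 0.0568), while 0.731% of genes passed with more bases and 3.38% with fewer. After each library was scaled to the mean total of covered bases it was 0.65 ± 0.091 and passed (limma adjusted p = 0.0282), and with a pseudocount of 500 in place of 100 bases it was 0.47 ± 0.087 and passed (limma adjusted p = 0.0388). It did not pass within 25 kb, at equal list length or without the filter on libraries (limma adjusted p = 0.0783, 0.0548 and 0.0646). With the title code as replicate block it did not pass either (limma adjusted p = 0.143). With 1 library left out it was 0.41 to 0.58, so passing depended on the setting. Zfp36 followed, with 2260 and 1876 bases in KO LPS, against 1321 and 1127 in KO untreated, and 1564 and 1217 in WT LPS, against 1152 and 1121 in WT untreated. Its groups overlapped, since WT LPS library 2 lay below KO untreated library 1 (log2 difference 0.48 ± 0.118, limma adjusted p = 0.0808).

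Zfp36l2 ran the other way, with 6003 and 6525 bases in KO LPS, against 8092 and 7118 in KO untreated, and 6289 and 6678 in WT LPS, against 7868 and 7824 in WT untreated. The groups did not overlap (exact permutation p = 0.0286, n = 4 each), but the log2 difference of -0.27 ± 0.079 did not pass (limma adjusted p = 0.107), and the median over all genes was -0.16. After scaling to the mean total of covered bases it was -0.11 ± 0.088 (limma adjusted p = 0.530), whereas the permutation used unscaled bases. Unscaled, with regions within 25 kb alone, the difference was -0.04 ± 0.078. Zfp36l1 (-0.18 ± 0.067) and Zc3h12a (-0.01 ± 0.067) did not pass either (limma adjusted p = 0.174 and 0.927), and the sign of Zc3h12a turned with the scaling. None of the 5 genes passed, and 4 had an unadjusted limma p under 0.05, as did 4081 of all 15726 (26.0%). In order of covered bases, Zfp36l2 and Zc3h12c came highest, then Zc3h12a, Zfp36l1 and Zfp36. Zfp36l2 had less than Zc3h12c in LPS libraries (6374 ± 294 against 8059 ± 613, SD, n = 4) and more in untreated libraries (7726 ± 422 against 5719 ± 696). These totals rise with the span assigned to a gene, so they compare libraries within a gene better than genes with each other.

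**Figure D5:**
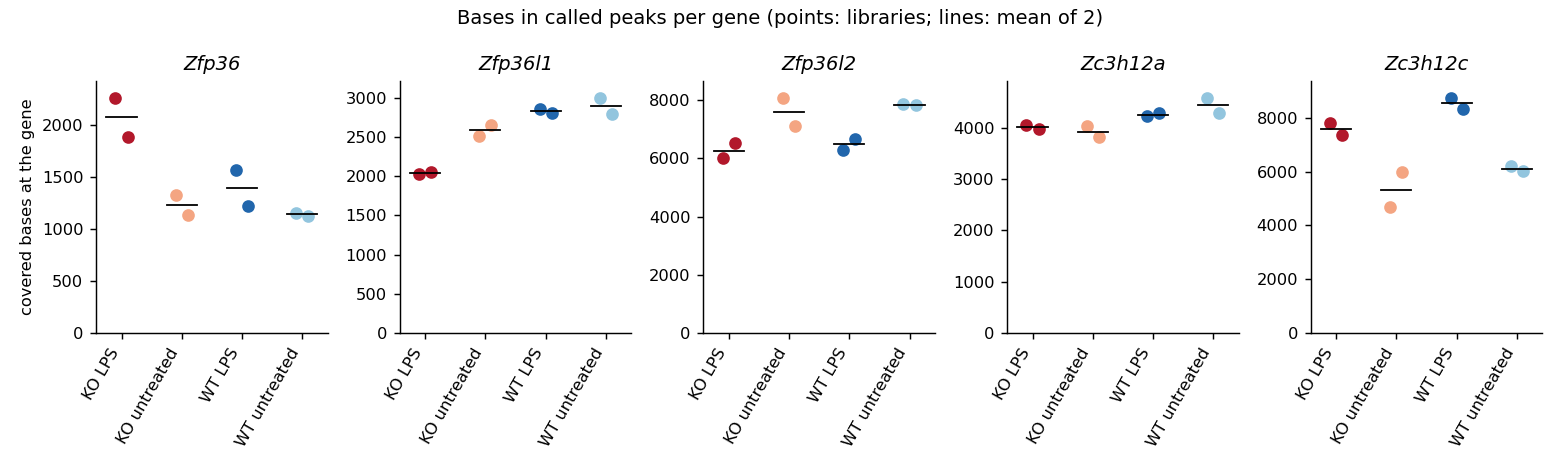
Bases in called peaks per gene (vertical axis, from 0) in the 4 groups, with points for libraries and lines for the mean of 2. For Zc3h12c both LPS groups lie above both untreated ones, for Zfp36l2 below, and for Zfp36l1 the KO LPS libraries (2035 and 2053) are the lowest.

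The second comparison asked where KO and WT macrophages differed. No KO library called 1 region (1.52% of the 66) that each of the 4 WT libraries did, against 0.231% of all regions, and none had the reverse pattern, which 0.147% of all regions show. The region lay 53.1 kb from Zfp36l1 (chr12:80054382-80054629), with no call in KO, against 181 and 203 bases in WT LPS and 211 and 196 in WT untreated, all close to the narrowest widths of the lists. A second region near this gene, 97.4 kb away (chr12:80009964-80010368), was missing from both KO LPS libraries alone. It had 301 and 330 bases in KO untreated, 371 and 373 in WT LPS and 358 and 384 in WT untreated.

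Over all its regions Zfp36l1 had 2315 ± 318 called bases in KO and 2868 ± 97.2 in WT (SD, n = 4 each), without overlap (exact permutation p = 0.0286, the smallest possible). The log2 difference of -0.31 ± 0.067 did not pass among 15726 genes (limma adjusted p = 0.155), of which 0.852% passed with fewer bases in KO and 0.394% with more. Within 25 kb it was -0.13 ± 0.120. Zc3h12a also had fewer bases in every KO library (3971 ± 112 against 4349 ± 163, SD, n = 4, exact permutation p = 0.0286), with a log2 difference of -0.13 ± 0.067 (limma adjusted p = 0.492). Zfp36 (0.32 ± 0.118), Zc3h12c (-0.19 ± 0.099) and Zfp36l2 (-0.05 ± 0.079) had limma adjusted p of 0.344, 0.492 and 0.832, and 2 of the 5 genes had an unadjusted p under 0.05, against 13.1% of all genes. How many of all genes have KO and WT libraries without overlap was not counted. The KO lists also covered less in total than the WT lists in each treatment, and the permutations used unscaled bases. After scaling to the mean total of covered bases, the genotype difference was -0.073 ± 0.070 for Zc3h12a and -0.25 ± 0.067 for Zfp36l1 (limma adjusted p = 0.741 and 0.243).

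Within LPS-treated macrophages, 2 of the 66 regions (3.03%) were called in both KO and neither WT library, against 2.03% of all regions, and 4 (6.06%) in both WT and neither KO library, against 3.17%. The 2 lay at Zfp36l2 (26.8 kb away, 178 and 276 bases in KO LPS) and at Zc3h12c (66.0 kb away, 271 and 175 bases). Of the 4, 2 were those at Zfp36l1 and 2 lay at Zc3h12c, 20.9 and 25.2 kb away, with 337 and 166 and with 162 and 196 bases in WT LPS. Within untreated macrophages, none was called in both KO and neither WT library, against 1.60%, and 3 (4.55%) were called in both WT and neither KO library, against 2.23%. These 3 were the Zfp36l1 region 53.1 kb away and 2 at Zc3h12c, of 183 and 196 and of 176 and 179 bases in WT, which were not called with LPS either. Several values of these genotype-dependent calls lay close to the narrowest peaks of the lists, 156 to 174 bases.

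Among the 30 regions called in all libraries, 3 were narrower in every KO than in every WT library, against 2.97% of all such regions, and none was wider, against 1.08%. The one with the largest difference lay 32.4 kb from Zc3h12a (chr4:125160282-125160842), with 262 and 245 bases in KO LPS, against 364 and 369 in WT LPS, and 360 and 198 in KO untreated, against 557 and 408 in WT untreated. Its log2 difference was -0.68 ± 0.209 (SE, limma adjusted p = 0.347). None of the 30 passed for genotype, where 0.00278% of the 36009 regions passed as wider in KO and 0.00555% as narrower, and 6 of the 30 had an unadjusted limma p under 0.05, against 10.6% of all.

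The third comparison asked whether the LPS difference depended on the genotype. In KO, 5 of the 66 regions were gained with LPS (7.58%, against 2.56% of all regions) and 3 lost (4.55%, against 4.07%). In WT, 6 were gained (9.09%, against 3.96%) and 6 lost (9.09%, against 5.06%). Both genotypes held the 4 gained and 2 lost regions described above. The remaining gained region in KO lay inside Zc3h12a (chr4:125122477-125122888), with 241 and 367 bases in KO LPS and none in KO untreated. It was called in both WT LPS libraries too, with 412 and 361 bases, but also in WT untreated library 2, with 288. A region close to it (chr4:125123291-125123562) was gained in WT, with 268 and 214 bases, and KO LPS library 2 also called it, with 173. The other gained region of WT was the one 25.2 kb from Zc3h12c. The lost region found in KO and not in WT was the one 97.4 kb from Zfp36l1, and those found in WT and not in KO were the 2 of Zc3h12c called in untreated WT alone, the one 26.8 kb from Zfp36l2 and one 73.9 kb from Zc3h12a. The last had 318 and 0 bases in KO LPS, against 399 and 436 in KO untreated, and none in WT LPS, against 710 and 239 in WT untreated.

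No difference between the genotypes in the LPS effect passed for any of the 5 genes (limma adjusted p from 0.848 to 1.00), where 0.369% of genes passed with a higher effect in KO and 0.305% with a lower one. None passed for the 30 regions either (from 0.642 to 0.999), where 0.00% and 0.00278% of all regions did. At an unadjusted limma p under 0.05 were 0 of the 5 genes, against 6.20% of all genes, and 3 of the 30 regions, against 6.63% of all regions. The largest at gene level was that of Zfp36, 0.45 ± 0.236 log2 units more in KO, with a 95% interval of -0.14 to 1.04. The LPS effects in KO and in WT share no library, whereas LPS against untreated and KO against WT use the same 8 libraries.

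The other genes of the pathway were taken from 6 lists of 75 genes, of which 72 could be tested. With LPS, 2 passed with fewer called bases and none with more, where 3.38% and 0.731% of all genes did. The same 2 passed with fewer in KO and none with more, where 0.852% and 0.394% of all genes did. They were Exosc2, a subunit of the RNA exosome, and Edc4, an enhancer of decapping. Exosc2 had a single region, with no call in KO LPS, against 391 and 457 bases in KO untreated, and 385 and 402 bases in WT LPS, against 452 and 460 in WT untreated. Its LPS effect was lower in KO than in WT by -2.21 ± 0.147 log2 units (limma adjusted p = 0.00908). Edc4 likewise had a single region with no call in KO LPS, against 358 and 352 bases in KO untreated, and 190 and 260 in WT LPS, against 369 and 383 in WT untreated (difference of the effects -1.63 ± 0.181, limma adjusted p = 0.0308). For both genes, the differences for LPS, for KO and between the LPS effects all draw on the same absence of calls in KO LPS. They are therefore not separate results. Both KO LPS libraries hold the same value, which adds no spread to the SE. With no call in a group, the size of such differences depends on the 100 bases added before taking logs. With 500 bases the differences of the effects were -0.79 ± 0.116 for Exosc2 and -0.50 ± 0.122 for Edc4 (limma adjusted p = 0.351 and 0.447). The difference of the effects also did not pass for Edc4 with any 1 library left out (limma adjusted p from 0.0544 to 0.147). For Exosc2 it did not pass without KO LPS library 2, WT LPS library 1 or either WT untreated library (limma adjusted p = 0.0516, 0.0544, 0.0679 and 0.0647). For KO against WT, neither gene passed with 500 bases (limma adjusted p = 0.0602 and 0.135), and Edc4 did not pass with any 1 untreated library or any 1 KO LPS library left out (from 0.0558 to 0.0739).

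By list, the median log2 difference with LPS was -0.18 for 17 deadenylation genes, -0.21 for 14 decapping and exonuclease genes and -0.09 for 9 other binders of AU-rich elements. It was -0.22 for 8 relatives and partners of Regnase and Roquin, -0.18 for 10 kinases, phosphatases and proteases that act on the decay factors, and 0.25 for 14 known target transcripts, against -0.16 over all genes. Among the targets, Nfkbiz, a nuclear regulator of NF-kB, had 8742 and 7297 bases in KO LPS, against 6580 and 6913 in KO untreated, and 8425 and 8177 in WT LPS, against 6177 and 6190 in WT untreated (0.33 ± 0.084, limma adjusted p = 0.0879). Tnf, the cytokine whose mRNA is a known target of tristetraprolin, had 1363 and 1170 bases in KO LPS, against 555 and 942 in KO untreated, and 2430 and 1478 in WT LPS, against 562 and 1145 in WT untreated (0.93 ± 0.289, limma adjusted p = 0.122). Every Tnf value with LPS exceeded every untreated one. Il12b, which encodes a subunit of interleukin-12, had a difference of 0.25 ± 0.076 (limma adjusted p = 0.117). The lists held 450 regions, of which 10 (2.22%) had peaks in every LPS library but in no untreated library, against 1.10% of all regions. The reverse held for 3 (0.667%), against 0.928% of all regions. Of the 10, 2 each were at Nfkbiz and Il12b and 1 each at Tnf, at Cnot2, a CCR4-NOT subunit, at Hnrnpd, which binds AU-rich elements, at N4bp1, an RNase, and at Tbk1 and Mapk14, which are kinases. Of the 3, 1 each was at Zc3h12d, a relative of Regnase, at Cxcl2, a chemokine, and at Ier3, an immediate early gene. Ier3 had 2662 and 3050 bases in KO LPS, against 3241 and 3471 in KO untreated, and 3143 and 3257 in WT LPS, against 3276 and 2916 in WT untreated (-0.09 ± 0.084, limma adjusted p = 0.528). The medians for KO against WT were -0.07, -0.10, -0.17, -0.01, -0.10 and -0.05 in the same order, against -0.07 over all genes.

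The genes whose called bases followed each decay factor most closely over the 8 libraries were found by Pearson correlation, as a description, among 8418 to 8427 genes with at least 3 regions. The 8 points share treatments and differ in list length. For Zc3h12c they were Rab10 (r = 0.986) and Olr1 (r = 0.967). Rab10, a GTPase of membrane traffic, had 4237 and 3790 bases in KO LPS, against 2718 and 3248 in KO untreated, and 4478 and 4310 in WT LPS, against 3378 and 3083 in WT untreated. For Zfp36l2 they were Clybl (r = 0.985) and Neurl1a (0.980), and for Zfp36l1 Tuba1b (0.978) and Tns1 (0.977). For Zc3h12a they were Lemd3 (0.978) and Atg2b (0.971), and for Zfp36 Slc26a9 (0.945) and Isl1 (0.934). Isl1 had 242 and 179 bases in KO LPS, 182 in WT LPS library 1 and no call in the other libraries. Its r therefore rests on few narrow peaks.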

How the data were processed

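Each library was deposited as a list of peak positions (chromosome, start and end, no other unit) on GRCm38 (mm10), with 1 list per library. Tools named in the submitters' processing notes are MACS2 2.1.1, Picard, Bowtie2 2.3.0 and bcl2fastq 2.17.1.14. The settings, the calling threshold, duplicate handling and any shift of cut sites, which decide the weak peaks in a list, were not stated.

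Peaks were merged where they shared at least 1 base. Regions went to the nearest protein-coding gene body of the GRCm38.p6 RefSeq table within 100 kb, ties by shared bases. Called bases per gene, as log2(bases + 100), and per region called in all 8 libraries, as log2(bases), were compared with limma 3.58.1 (R 4.3.3) over 4 group means with Benjamini-Hochberg adjustment over all 15726 genes with a region called in at least 2 libraries or all 36009 regions (adjusted p under 0.05). The fit was tested on simulated data. Exact permutation tests enumerated 70 arrangements of the unscaled values, without regard to the title code. Named genes were the 5 members, up to 4 per pathway list (past the threshold, then with a region gained or lost in both genotypes, then by covered bases; not all are described) and the 2 most alike among genes that are neither predicted nor close neighbours. The members and lists were chosen with earlier results of these data known.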

Additional observations from a re-analysis of the deposited data

Results flagged for a closer look

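A region 3.57 kb before Zc3h12c (chr9:52172301-52172930) moved in opposite directions with LPS in the genotypes, without overlap within either. It had 524 and 559 called bases in KO LPS, against 420 and 463 in KO untreated, and 433 and 441 in WT LPS, against 546 and 487 in WT untreated. The LPS difference was 100 bases in KO and -79.5 in WT, 179.5 bases apart. The interaction in limma was 0.53 ± 0.160 log2 units (SE, adjusted p = 0.642 over 36009 regions), which did not pass, and 3.80% of all regions called in the 8 libraries show such opposite movement.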

How the results depend on the processing

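Depth is unknown, so narrow peaks near a caller's limit cannot be told from missed ones, and 2 libraries per group leave few degrees of freedom. Counts of regions near the 5 genes moved as follows, and not every count is listed for each setting. With at least 50% of a region covered, 2 were gained in both genotypes, 4 were gained and 5 lost in KO, and 7 were gained and 7 lost in WT. At that cover, 1 was called with LPS in KO and not in WT, and 1 untreated, while 4 untreated were called in WT and not in KO. Within 25 kb, 0 were lost in both genotypes, 0 lost in KO and 1 in WT, 0 were called in KO and not in WT with LPS, and those called in WT and not in KO were 1 with LPS, 1 untreated and 0 in both treatments. With lists cut to an equal length of 54027 peaks, 0 were lost in both genotypes and 3 in WT, and 0 were called in WT and not in KO untreated and 0 in both treatments. With the widest 27013 peaks of each list, 3 were gained in KO and 2 in both genotypes, and 0 were lost in KO, 2 in WT and 0 in both. In KO and not in WT there was 1 with LPS, and in WT and not in KO 0 with LPS, 1 untreated and 0 in both treatments. Leaving out 1 library gave 5 to 9 gained and 3 to 6 lost in KO, 6 to 9 gained and 6 to 8 lost in WT, and 4 to 5 gained and 2 to 3 lost in both. It gave 2 to 4 in KO and not in WT and 4 to 8 in WT and not in KO with LPS, 0 to 2 and 3 to 5 untreated, and 0 to 1 and 1 to 1 in both treatments.

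Among the genes, 1 passed with more bases under a pseudocount of 500 and 1 after scaling to the total covered bases, Zc3h12c in both. Among the regions, 2 passed as wider and 0 as narrower after centring, 0 as narrower over regions called in at least 6 libraries, and 0 to 0 in either direction with 1 library left out. With the replicate block, the title code that pairs each LPS library with an untreated one, 0 passed in either direction, and 0 of all regions did. The labels do not say that the code marks an animal, so the main fits do not pair by it. Deviations of libraries sharing it correlated by 0.119 in KO and 0.110 in WT over genes and by 0.0544 and 0.0537 over regions. With 2 libraries per group, these values cannot decide whether the libraries are paired. With the code as block, 15 of all genes passed with more bases for LPS and 23 with fewer, against 115 and 532 in the main fit. By replicate number, KO and WT libraries correlated by 0.0560 with LPS and 0.0783 untreated over genes and by 0.0170 and 0.0415 over regions, and with that block 0 of the 5 genes and 0 of the 30 regions passed. With the code as block, Exosc2 and Edc4 did not pass for LPS against untreated (limma adjusted p = 0.0530 each) or for the difference of LPS effects (0.192 and 0.206), and with the number as block they did not pass for KO against WT (0.105 and 0.135).

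No difference that passed changed its sign. Of those that did not pass, the LPS difference of Zc3h12a was 0.16 within 25 kb, 0.0060 at equal list length, 0.15 after scaling and -0.037 to 0.011 with 1 library left out. The genotype difference of Zfp36l2 was 0.013 within 25 kb and 0.0064 after scaling. The difference of LPS effects was -0.0054 for Zc3h12a within 25 kb, -0.0072 for Zc3h12c and 0.11 for Zfp36l2 at equal list length, and 0.0088 for Zfp36l2 after scaling, and with 1 library left out -0.14 to 0.20 for Zc3h12c and -0.093 to 0.089 for Zfp36l2. After centring, LPS differences of regions became 0.11, 0.011 and 0.014 at Zc3h12c (inside the gene, 19.4 kb and 75.2 kb away), 0.074 over the start of Zfp36l1, and 0.039, 0.11 and 0.055 at Zfp36l2 (75.4 kb and 37.8 kb away and over its end). With 1 library left out they were -0.072 to 0.24 at Zc3h12a (17.3 kb), -0.087 to 0.16 over the start of Zfp36, -0.13 to 0.11, -0.013 to 0.070 and -0.25 to 0.029 at Zc3h12c (inside, 3.57 kb and 19.4 kb), -0.13 to 0.030 over the start of Zfp36l1, and -0.093 to 0.058 and -0.14 to 0.0064 at Zfp36l2 (37.8 kb and over its end). The cause of these changes was not tested.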
